A study of Arabidopsis thaliana with 8 samples.

Results

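These 70 probe sets read out transcripts whose signal was high in the untreated line, lower after 1 h, and low after 4 h both in the transgenic line and in wild type. They were selected on the signal itself from 22746 probe sets that are not controls, of which they make up 0.308%. A probe set is a group of short oligonucleotides on the array that reads out 1 transcript, and its signal is on a linear scale. With L the log2 of a group's mean signal plus 45, a member had L at least 1.5 lower in the line at 1 h, in the line at 4 h and in treated wild type than in the uninduced line, L within 0.5 of each other in the line and in wild type at 4 h, and a highest group mean of at least 200. Of the 77 probe sets that met these limits, 7 were left out by name: AKINBETA1, AT4G27450, AT1G33055, AT1G23390, MCCA, AT2G20670 and AT2G32150. The differences from the uninduced line, and the difference between line and wild type at 4 h, therefore chose the members and are given as a description only. The rule sets no direction for either 4 h group against the 1 h samples, and those comparisons were tested. They are not fully independent of the choice, because each of these groups entered it through its difference from the uninduced line.

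Seedlings of Arabidopsis thaliana, accession Ws-0, were 8 days old in all groups. The transgenic line, 35S:LEC2-GR, makes a fusion of the seed transcription factor LEAFY COTYLEDON2 with the glucocorticoid receptor under the viral 35S promoter, which drives expression in most cell types. The groups were the line without treatment (uninduced), the line after 1 h and after 4 h of dexamethasone, the steroid that activates the fusion, and wild type Ws-0 after 4 h of dexamethasone. Each group had 2 biological replicates on ATH1 arrays, and nothing in the labels says how many plants were pooled or how many independent lines were used. No untreated wild type and no mock-treated seedlings are among these samples, so dexamethasone and elapsed time cannot be told apart, and where wild type is set against the uninduced plants neither can genotype.

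Replicates correlated at 0.970 to 0.978 on the log2 scale, and no array stood apart in this measure. The 3' end to 5' end signal ratio of the actin control was 6.90 and 13.4 on the uninduced arrays. On the treated arrays it ran from 8.65 to 12.1. For the GAPDH control it was 2.30 and 3.22 on the uninduced arrays and 1.59 to 3.37 on the treated ones. The part of these ratios in the results was not tested. Array medians lay between 170 and 191. The instrument records show 1 scan day and 1 array lot. Wild type and uninduced arrays were scanned first and 1 h and 4 h arrays after them. The steps were 11 or 12 minutes, with 25 before the second 4 h array, so scan times show no break between these stretches. The hybridisation time is filled in for the first stretch only, and whether the stretches were processed apart is not stated. The 1 h and 4 h samples lie within 1 stretch of the scan order, as do wild type and the uninduced line. The 1 h samples and wild type do not. Nor do the line at 4 h and wild type, or the line at 1 h or 4 h and the uninduced line. For these pairs, group and stretch cannot be told apart. A remark on image background accompanies the second 4 h array. The organ marker lists could be checked in part, and 4 of 10 root genes had a named probe set. Their summed signal was 11014 and 10897 at 1 h, 9539 and 8423 at 4 h and 13470 and 12426 in treated wild type. In the uninduced line it was 10865 and 11434. PYK10 made up most of the sum, with 10385 and 10519.5 at 1 h against 9931 and 10743 in the uninduced line. AT1G30870 read 28.3 and 85.5 at 1 h against 179 and 182 in the uninduced line. It alone of the 4 was called at 1 h, lower by limma (-1.21, adjusted p = 0.013). By limma PYK10 alone of the 4 was called at 4 h, lower at -0.33 (SE 0.12, adjusted p = 0.042). PYK10 was also lower in the line at 4 h than in treated wild type (-0.57, SE 0.12, adjusted p = 0.0072). In 4 h minus 1 h, limma called AT1G30870 higher, at 1.27 (SE 0.31, adjusted p = 0.0088). The leaf mesophyll and seed storage lists had none, the meristem gene CLV3 lay between 3.9 and 9.9 on all arrays, and the guard cell gene FMA read 290 and 199 at 1 h, 109 and 108 at 4 h and 167 and 176 in treated wild type, against 232 and 270 in the uninduced line. Limma called FMA lower at 4 h (-0.94, SE 0.24, adjusted p = 0.0062) and lower at 4 h than at 1 h (-0.90, SE 0.24, adjusted p = 0.016). FMA was not called at 1 h or in treated wild type against the uninduced line. In whole seedlings, fewer cells of a type and less RNA per cell cannot be told apart, and the part of these markers in the results was not tested.

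The level of a transcript falls after its synthesis stops at a rate set by how fast the RNA is broken down. When a plant is short of sugar or kept in the dark, the kinase SnRK1 raises genes for protein, lipid and amino acid breakdown and for autophagy, the enclosure of cytoplasm in membranes for digestion, and sugar or light lowers them again. ATG8 proteins are the ubiquitin-like proteins attached to the autophagosome membrane.

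Of the 70 members, 38 list a single gene in the platform annotation, and RefSeq (TAIR10.1) holds all 38. The other 32 are not listed and are given by probe set name. The share with a single gene, 54.3%, compares with 59.4% over the array. None is a probe set marked as shared between transcripts by its name. Signals of different probe sets also depend on their probes, so they are not compared as amounts of RNA. The mean signal in the uninduced line ran from 283 to 22506 with a median of 1395, while the median over all probe sets was 174, and 47 members lay at 1000 or more. The median of the group means was 325 at 1 h and 255 at 4 h in the line and 290.2 in wild type. As a share of the uninduced mean, the median member stood at 21.5% after 1 h and 17.8% after 4 h in the line, and at 19.4% in wild type. Summed over the members the signal was 179942 and 162901 in the uninduced line, 38146 and 33669 at 1 h and 28881 and 25685 at 4 h, against 28452 and 31103 in wild type.

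All 70 were called lower at an adjusted p under 0.05 by limma in each of 3 comparisons that the rule used. The same call was made for 7.16% of 15026 tested probe sets at 1 h (9.5% higher), 16.8% at 4 h (18.8% higher) and 14.3% in wild type (16.8% higher), and nothing is read from the members' count. The median log2 differences from the uninduced line were -2.0 for 1 h, -2.28 for 4 h and -2.13 for wild type. In the line at 4 h minus wild type, also set by the rule, limma called 0 members, with 6 at an unadjusted p under 0.05, beside 3.21% of all tested probe sets called lower and 3.42% higher. In every member the highest of the 6 treated arrays lay below the lower uninduced array, by 1.93-fold at the least and 3.16-fold at the median. At 1 h the median member had covered 0.887 of its 4 h log2 difference, with a range of 0.474 to 1.35, and 50 members had covered at least 0.8. The rule asked for a difference of at least 1.5 at 1 h, which favours a high share, so no speed is read from it. Uninduced replicate 1 was above replicate 2 in 49 of the 70, by a median of 0.19 on the log2 scale, against -0.01 over all probe sets with a mean of at least 200.

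**Figure D1:**
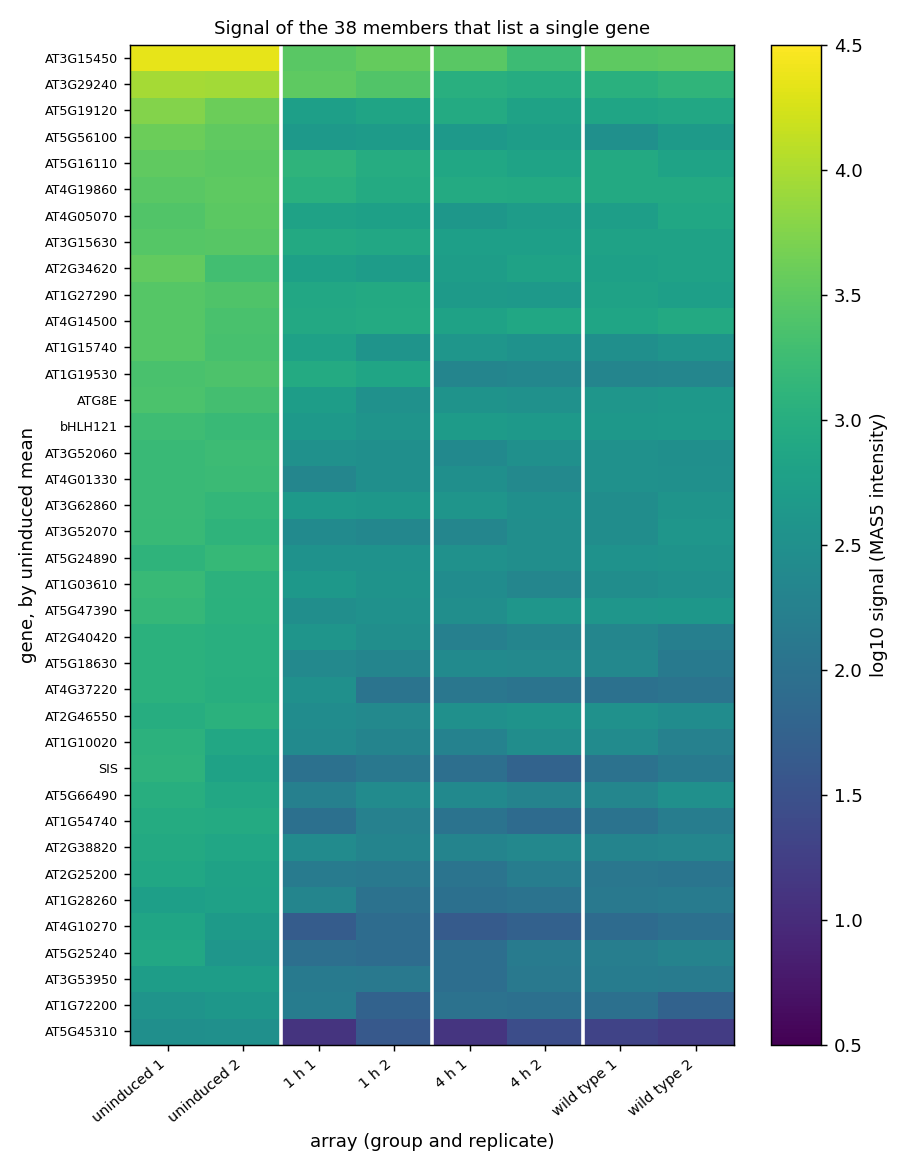
Signal on each of the 8 arrays for the 38 members that list a single gene, as log10 of the deposited intensity, ordered by uninduced mean, with white lines between the groups. Every gene is brightest on both uninduced arrays, and AT3G15450 at the top keeps a signal of 1745 or more on all arrays.

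**Figure D2:**
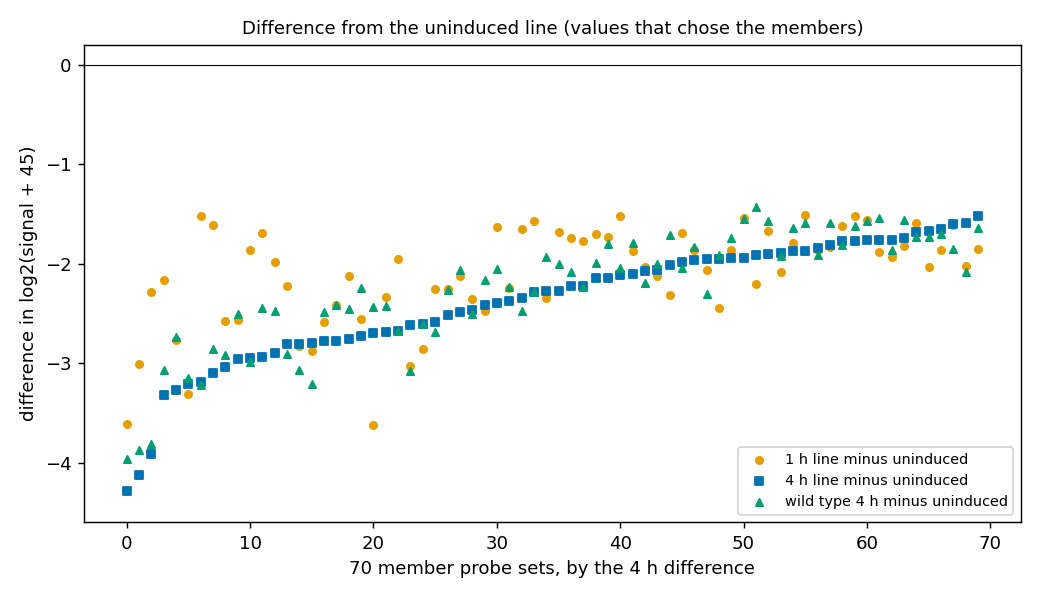
Difference in log2(signal + 45) from the uninduced line for each of the 70 members, ordered by the 4 h value, for the line at 1 h (circles), the line at 4 h (squares) and wild type at 4 h (triangles). All points lie below 0, as the choice of members requires, and the circles stand above the squares for several members at the left.

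AT3G15450 had the highest uninduced signal of the members, and encodes an aluminium-induced protein with YGL and LRDR motifs, of the family that also holds AT4G27450. The list of sugar starvation and dark-induced genes holds 37 genes, and AT3G15450 is its only named member. Of the rest, 7 had a named probe set, and the others could not be looked for. Whether any of the 32 unlisted members reads one of them was not tested. The signal of AT3G15450 was 22544 and 22468 in the uninduced line, 2985 and 3556 at 1 h and 2987 and 1745 at 4 h, against 3256 and 3422 in wild type. All 3 treated groups stood far below the uninduced arrays, and the lowest array was 4 h replicate 2.

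ATG8E, 1 of the autophagy ATG8 genes, read 2301 and 2043 in the uninduced line, 525 and 333 at 1 h and 354 and 332 at 4 h, against 400.5 and 432 in wild type. The 1 h replicates lay further apart than the later ones, and both wild type arrays were above those of the line at 4 h. AT5G19120, of the aspartyl protease family, read 5814 and 3969 in the uninduced line, 566 and 686 at 1 h and 870.3 and 649 at 4 h, against 707 and 798 in wild type, with 1 h and 4 h arrays that overlapped. AT4G19860, a phospholipase related to lecithin:cholesterol acyltransferase, read 2988 and 3231 in the uninduced line, 1102 and 871 at 1 h and 898 and 852 at 4 h, against 844 and 862 in wild type. Its treated arrays all lay between 844 and 1102. AT3G62860, of the monoacylglycerol lipase family, read 1621 and 1389 in the uninduced line, 456 and 408 at 1 h and 385 and 312 at 4 h, against 287 and 376 in wild type. The class 3 lipase AT5G18630 averaged 20.8% of its uninduced mean at 1 h and 22.6% at 4 h, against 17.3% in wild type.

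Among regulators, the transcription factor bHLH121, which acts in the iron deficiency response, read 1812 and 1634 in the uninduced line, 467 and 373 at 1 h and 497 and 454 at 4 h, against 435 and 445 in wild type. The 6 treated arrays lay within 373 and 497. The protein kinase AT4G01330 read 1636 and 1659.9 in the uninduced line, 221 and 306 at 1 h and 308 and 239 at 4 h, against 339 and 323 in wild type. AT5G47390, the MYB-related repressor KUA1 known from leaf cell expansion, stood at 24.4% of its uninduced mean at 1 h and 27% at 4 h, and at 31.7% in wild type. AT1G72200, a RING finger protein of the ATL family, had 57.8 to 152 on its treated arrays, against 367 and 415 without treatment.

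The wound-responsive family had a pair of members. AT4G05070 read 2592 and 3106 in the uninduced line, 634 and 594 at 1 h and 421 and 519.6 at 4 h, against 545 and 759 in wild type. AT4G10270 stood at 10.7% of its uninduced mean at 1 h and 8.44% at 4 h, against 14.8% in wild type. AT4G37220, of the cold acclimation WCOR family, stood at 20.2%, 10.7% and 9.62%, and its 1 h arrays, 327 and 108, lay far apart. SIS, named for salt-induced serine-rich protein, stood at 12.1%, 8.13% and 12.8%. Its uninduced arrays, 1236 and 628, were also far apart.

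Other members belong to membrane, lipid-binding and glycosylation families. AT5G56100, a glycine-rich, oleosin-like protein, read 3942 and 3368 in the uninduced line, 463 and 488 at 1 h and 443 and 526 at 4 h, against 319 and 486 in wild type. AT2G34620, of the mTERF family of organelle gene regulators, read 3498 and 1924 in the uninduced line, 603 and 517 at 1 h and 541 and 636 at 4 h, against 586 and 645 in wild type, with uninduced replicates far apart. AT4G14500, with a lipid-binding START domain, read 2798 and 2252 in the uninduced line, 807 and 887 at 1 h and 639.5 and 774 at 4 h, against 712 and 864 in wild type. It had one of the smaller differences at 1 h, at -1.53 on the log2 scale. The leucine-rich repeat protein AT1G15740 read 2774 and 2178 in the uninduced line, 607 and 374 at 1 h and 395 and 350.0 at 4 h, against 315 and 374 in wild type. The glycosyltransferase-like AT3G52060 read 1622 and 1727 in the uninduced line, 332 and 306 at 1 h and 251 and 327 at 4 h, against 332 and 306 in wild type. Its neighbour on the chromosome, AT3G52070, with no protein-coding gene between them in RefSeq, read 1585 and 1255 in the uninduced line, 258 and 226 at 1 h and 219 and 297 at 4 h, against 284 and 394 in wild type. In both genes the 1 h and 4 h arrays of the line overlapped, and all treated arrays lay far below the uninduced ones. AT3G53950, related to glyoxal oxidases, stood at 25.5% and 20.8% of its uninduced mean at 1 h and 4 h, and at 28.1% in wild type.

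The remaining single-gene members outside the tests below are AT5G24890, AT2G46550, AT1G10020, AT5G66490, AT1G54740, AT2G38820, AT2G25200, AT1G28260, AT5G25240 and AT5G45310. AT1G54740, of the FANTASTIC FOUR-like family, stood at 15.3% of its uninduced mean at 1 h and 10.4% at 4 h, against 14.8% in wild type. AT2G25200 stood at 19.5%, 19.1% and 16.7%, and AT5G25240 at 14.5%, 20.1% and 30.4%. The wild type value of AT5G25240 was the closest to the limit. AT2G46550 stood at 24.6%, 32.1% and 29.1%, with the smallest difference at 4 h of all members. AT5G24890 read 1256 and 1510.5 in the uninduced line, 343 and 349 at 1 h and 335 and 303 at 4 h, against 343 and 365 in wild type. AT5G45310 had 12.8 to 40.7 on its treated arrays, against 307 and 322 without treatment. The 32 unlisted members had median differences from the uninduced line of -2.02 for 1 h, -2.50 for 4 h and -2.41 for wild type, beside -1.91, -2.25 and -2.06 for the 38 that list a gene. Of the unlisted probe sets, 267461_at read 11478 and 10933 in the uninduced line, 3948 and 2339 at 1 h and 3941 and 3184 at 4 h, against 3037 and 3839.5 in wild type. It was lower in every treated array, and its treated groups overlapped.

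The line at 4 h minus the line at 1 h asks whether the low level reached at 1 h was the final one. Limma called 16 members lower, 22.9% of the 70, where 9.34% of all tested probe sets were lower, and 1 higher, where 10.3% were. The members' median was -0.22 on the log2 scale, against -0.02 over all tested probe sets, and 46 lay under 0. The limits of the rule cut the values of both groups, so the members' share is not read as a difference from the array. For 53 members no difference was called, with estimates from -0.68 to 0.49, which does not show that their level stayed the same. The count of 16 was 8 without 1 h replicate 1, 10 without 4 h replicate 1 and 9 without 4 h replicate 2, and 7 members kept the call when each array was left out in turn.

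Of these 7, 3 list a gene. AT1G19530 fell by 1.67 (SE 0.17, adjusted p = 8.7e-06), with signals of 2285 and 2404 in the uninduced line, 875 and 709 at 1 h and 206 and 227 at 4 h, against 209.6 and 213 in wild type. AT3G29240 fell by 1.49 (SE 0.15, adjusted p = 7.4e-06), with signals of 9134 and 8944 in the uninduced line, 3272 and 2619.5 at 1 h and 1069 and 959 at 4 h, against 1107 and 1314 in wild type. In both genes the 1 h arrays stood between the uninduced and the 4 h arrays without overlap. AT1G27290 fell by 0.76 (SE 0.15, adjusted p = 0.0025), with signals of 2829 and 2464 in the uninduced line, 800.2 and 846 at 1 h and 483 and 451 at 4 h, against 644 and 562 in wild type. The other 4 are unlisted. The probe set 260869_at fell by 1.63 (SE 0.33, adjusted p = 0.0026), with signals of 626 and 738 in the uninduced line, 94.4 and 113 at 1 h and 1.7 and 4.4 at 4 h, against 3.3 and 9.7 in wild type. Of these 1 h and 4 h arrays, 1 lay above its array's 40th percentile, so the probe set was tested through its uninduced signal and this call compares dim values. Without it, 15 members were called lower and 6 kept the call. The probe set 266984_at fell by 1.15 (SE 0.15, adjusted p = 9.9e-05), with signals of 3798 and 4078 in the uninduced line, 883 and 802 at 1 h and 388 and 322 at 4 h, against 439 and 421 in wild type. The probe set 247954_at fell by 1.09 (SE 0.15, adjusted p = 1.1e-04), with signals of 6859 and 6043 in the uninduced line, 1567 and 1934 at 1 h and 839.6 and 753 at 4 h, against 753 and 789.8 in wild type. For both, the 4 h and wild type arrays were close together and below the 1 h arrays. The probe set 246396_at fell by 0.92 (SE 0.19, adjusted p = 0.0027), with signals of 3486 and 2976 in the uninduced line, 727 and 839.9 at 1 h and 492 and 312 at 4 h, against 531 and 553 in wild type.

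The other 9 calls were lost without at least 1 array. AT2G40420, of the amino acid transporter family, fell by 0.72 (SE 0.20, adjusted p = 0.018), with signals of 1134 and 1068 in the uninduced line, 385 and 302 at 1 h and 172 and 208 at 4 h, against 215 and 167 in wild type. Its adjusted p was 0.145 without 1 h replicate 1 and 0.122 without 4 h replicate 1. AT5G16110 fell by 0.59 (SE 0.17, adjusted p = 0.024), with signals of 3380.0 and 3157 in the uninduced line, 1286 and 952 at 1 h and 774 and 669 at 4 h, against 856 and 669.6 in wild type. AT1G03610 fell by 0.59 (SE 0.19, adjusted p = 0.044), with signals of 1548 and 1194 in the uninduced line, 432 and 354 at 1 h and 276 and 218 at 4 h, against 284 and 326 in wild type. AT3G15630 fell by 0.48 (SE 0.14, adjusted p = 0.028), with signals of 2745 and 2939 in the uninduced line, 845 and 786 at 1 h and 565 and 576 at 4 h, against 639.8 and 628 in wild type. In these 3 genes the 4 h arrays were below the 1 h arrays, by less than the difference already reached at 1 h. Leaving out an array brought the adjusted p to between 0.0507 and 0.227 for AT5G16110, 0.0569 and 0.26 for AT1G03610 and 0.0964 and 0.127 for AT3G15630.

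Among unlisted probe sets, 261901_at fell by 1.12 (SE 0.29, adjusted p = 0.013), with signals of 10892 and 10774 in the uninduced line, 1744 and 976 at 1 h and 832 and 396 at 4 h, against 548 and 888 in wild type. The probe set 264524_at fell by 1.25 (SE 0.29, adjusted p = 0.0065), with signals of 916 and 1296 in the uninduced line, 464 and 198 at 1 h and 90.8 and 117 at 4 h, against 148 and 180.3 in wild type. In both, the 1 h replicates were far apart. The probe set 260914_at fell by 0.72 (SE 0.20, adjusted p = 0.017), with signals of 1817 and 1689 in the uninduced line, 341 and 510.5 at 1 h and 239 and 232 at 4 h, against 259 and 213 in wild type. The probe set 256772_at fell by 0.69 (SE 0.19, adjusted p = 0.018), with signals of 4443 and 3047 in the uninduced line, 1252 and 1031 at 1 h and 658 and 718 at 4 h, against 724 and 542 in wild type. The probe set 256894_at fell by 0.63 (SE 0.20, adjusted p = 0.042), with signals of 1512 and 1299 without treatment, 346 and 235 at 1 h and 163 and 176 at 4 h, against 200 and 238 in wild type. These last had 4 h arrays below both 1 h arrays. One member went the other way: 260431_at rose by 0.92 (SE 0.29, adjusted p = 0.035), with signals of 926 and 784 in the uninduced line, 27.8 and 28.2 at 1 h and 111 and 77.8 at 4 h, against 82.9 and 170.1 in wild type. It was likewise dim, with 1 of its 1 h and 4 h arrays above the 40th percentile, and its call was lost without any 1 of 6 arrays, at adjusted p between 0.0585 and 0.204.

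**Figure D3:**
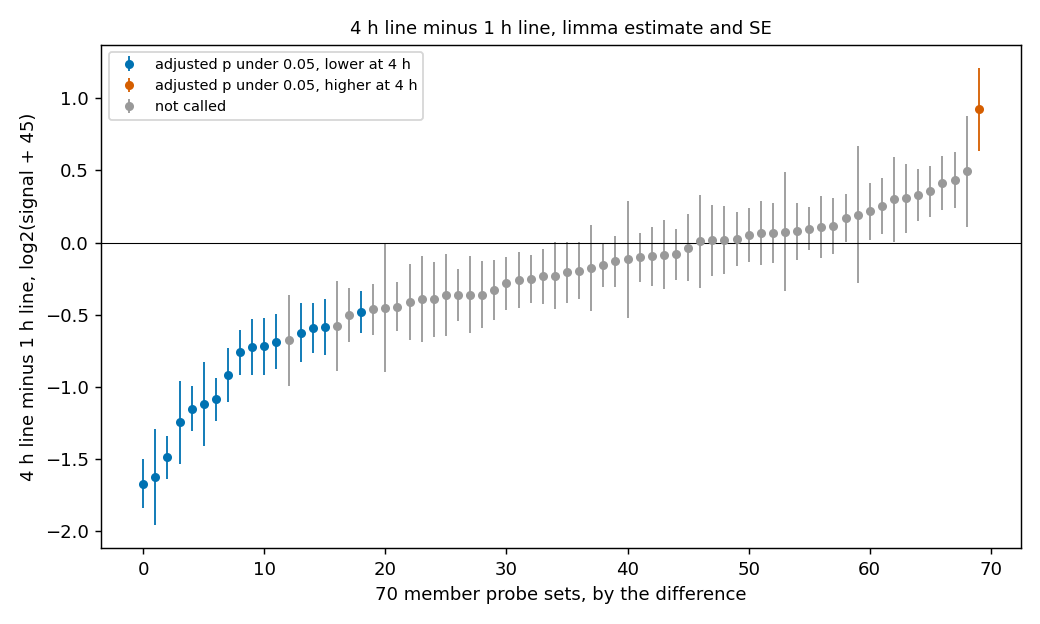
Line at 4 h minus line at 1 h for the 70 members, as the limma estimate with its SE (bars) in log2(signal + 45), ordered by value. The 16 members called lower reach -1.67 at the left and the 1 called higher, at 0.92, is the last at the right.

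Wild type at 4 h minus the line at 1 h uses the same 1 h arrays, and the rule holds wild type close to the line at 4 h, so it is given beside the first comparison and not as a repeat of it. Limma called 9 members lower, 12.9% of the 70, where 9.12% of all tested probe sets were lower, and 1 higher, where 10.1% were. The median was -0.06, against 0.01 over all tested probe sets. These arrays come from different stretches of the scan order, whose part was not tested. The log2 difference was -1.70 (SE 0.17, adjusted p = 5.4e-06) for AT1G19530 and -1.25 (SE 0.15, adjusted p = 2.6e-05) for AT3G29240. It was -0.72 (SE 0.20, adjusted p = 0.018) for AT2G40420 and -0.52 (SE 0.17, adjusted p = 0.046) for AT5G16110, whose call was lost without any 1 of 7 arrays. The unlisted 260869_at, 247954_at, 266984_at, 256772_at and 260914_at were called as well. These calls held without each array in turn for 5 of the 9: AT1G19530, AT3G29240, 260869_at, 247954_at and 266984_at, or 4 of 8 without the dim 260869_at. The probe set 260431_at, also dim, was higher by 1.18 (SE 0.29, adjusted p = 0.0091), and lost the call without wild type replicate 2 (adjusted p = 0.158).

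Other genes of the pathways named above were taken from lists by locus, on which only genes with a probe set of their own could be read. The comparisons with the uninduced line share its 2 arrays, and their counts stand beside the shares of all probe sets given above. Of 7 other genes of the sugar starvation and dark-induced list, 6 were called lower at 1 h, 7 at 4 h and 7 in treated wild type. Of these 7, 6 met the limits of the members and were left out by name, so the count is no independent evidence. In wild type minus uninduced these reached -4.85 for AT1G33055, -4.64 for AT4G27450, -3.98 for AT2G32150 and -3.95 for AT2G20670. ATL8, a RING finger protein named here after its values were seen, had -0.90 (SE 0.31, adjusted p = 0.057) at 1 h, -1.16 (SE 0.31, adjusted p = 0.0078) at 4 h and -0.84 (SE 0.31, adjusted p = 0.049) in treated wild type. Its wild type call was lost in 8 of 14 alternatives, the replicate block among them (adjusted p = 0.0566), which leaves 6 of 7.

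Of 10 genes of amino acid breakdown, 8 were lower at 1 h, 9 at 4 h and 9 in treated wild type, and none was higher. Their median log2 difference was -0.78 for 1 h, -1.54 for 4 h and -1.40 for wild type, where the medians of all tested probe sets lay between -0.01 and 0.03. IVD, the isovaleryl-CoA dehydrogenase of leucine breakdown, stood at -0.90 at 1 h, -1.94 at 4 h and -2.01 in treated wild type on the log2 scale. MCCA, which the rule left out by name and which with MCCB forms methylcrotonyl-CoA carboxylase, stood at -2.37, -4.20 and -4.22. MCCA met the limits of the members, so its part in these counts and medians is no independent evidence. MCCB stood at -1.02, -1.86 and -1.72. ETFQO, which passes electrons from such dehydrogenases to the respiratory chain, stood at -0.79, -1.56 and -1.48. All but MCCA differed from the members in moving less at 1 h than the limit of 1.5, and 7 of the 10 were lower at 4 h than at 1 h. MGL stood at -0.76, -2.29 and -1.46. It alone of the 10 was called in the line at 4 h minus wild type, lower at -0.83 (SE 0.19, adjusted p = 0.010). D2HGDH was not called. The 1 h call of AT2G26800, at -0.51 (SE 0.16, adjusted p = 0.046), was lost in 12 of 14 alternatives, with the replicate block at adjusted p = 0.0509. That of ALDH6B2 was lost in 4 of 14. The count at 1 h was 4 without uninduced replicate 2 and 5 without 1 h replicate 2.

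The autophagy list was matched by symbol, and apart from ATG3 it holds ATG8 genes only, so it is a part of the pathway. Of 9 other genes of the autophagy list, 2 were lower at 1 h, 6 at 4 h and 5 in treated wild type, with median differences of -0.30, -0.79 and -0.68. The ATG8 genes are related in sequence, and binding of 1 gene's RNA to another's probes was not tested. ATG8F had -1.25 (SE 0.15, adjusted p = 1.9e-05) at 1 h, -2.27 (SE 0.15, adjusted p = 2.2e-08) at 4 h and -2.08 (SE 0.15, adjusted p = 8.5e-08) in treated wild type. ATG8C had -0.53 (SE 0.16, adjusted p = 0.029), -1.12 (SE 0.16, adjusted p = 4.9e-05) and -1.27 (SE 0.16, adjusted p = 2.0e-05). These were the 2 called at 1 h, and only 1 was called without either uninduced or either 1 h array. APG8A, APG8H, ATG8H and ATG3, the conjugating enzyme of ATG8, were the other 4 called lower at 4 h, with values between -0.95 and -0.44. The call of ATG3 was lost in 10 of 14 alternatives, with the replicate block at adjusted p = 0.0527. ATG8D was called higher at 4 h, at 0.47 (SE 0.17, adjusted p = 0.047), and the call was lost in 9 of 14 alternatives, with the replicate block at adjusted p = 0.0547.

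**Figure D4:**
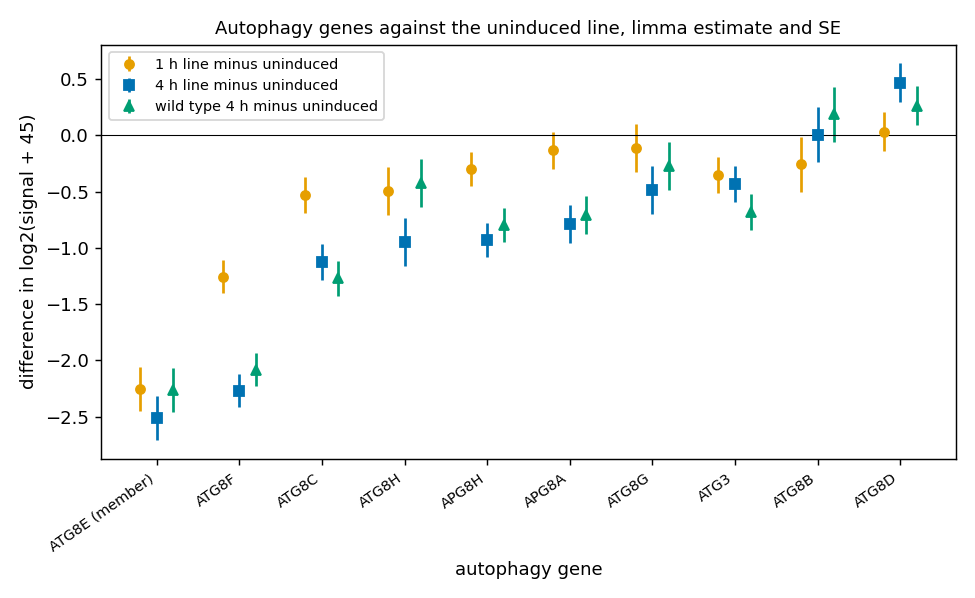
Genes of the autophagy list (ATG3 and ATG8 genes), ordered by the 4 h value, as limma estimate and SE of the difference in log2(signal + 45) from the uninduced line at 1 h (circles), at 4 h (squares) and in treated wild type (triangles). ATG8E, a member, and ATG8F lie lowest, and at 4 h ATG8F is at -2.27.

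The other lists had at most 4 tested genes, which do not stand for whole pathways. The clock list had 1 tested gene of 27 and the light signalling list 1 of 17. The senescence list had 1 of 14 and the beta-oxidation list 1 of 13. GI, a clock gene with daily rhythm, was called higher at 1 h (0.60), at 4 h (1.22) and in treated wild type (1.13). WRKY53, a senescence regulator, was called higher at 1.13, 1.02 and 1.01. PWD, an enzyme of starch breakdown, stood at -0.19, 1.16 and 1.37, called higher at 4 h and in wild type, as was DPE1, the other tested gene of its list, at 0.52 and 0.69. Of 4 tested genes of chlorophyll synthesis and early light response, 2 were lower at 1 h, CHLM and PORB, and CHLM alone was lower at 4 h and in treated wild type. HYH, a light signalling factor, stood at 2.73 and 2.28 in the line, called higher at both times, and at -0.02 in wild type, not called. In the line at 4 h minus wild type HYH was called higher, at 2.30 (SE 0.18, adjusted p = 8.4e-07). On the sulphate and phosphate starvation list, AT1G04770 was called higher in all 3 comparisons, at 0.68, 2.10 and 2.33. BGLU28, on that list and on the glucosinolate list, was called higher at 4 h only (1.92). BCAT4, a glucosinolate synthesis gene, was called higher in wild type only (0.75). In the line at 4 h minus wild type, limma called BGLU28 higher, at 1.81 (SE 0.42, adjusted p = 0.012). In the same comparison BCAT4 was called lower, at -1.14 (SE 0.23, adjusted p = 0.0046). MYBC1, the MYB list's 1 gene, was called lower in wild type (-1.68), and higher in the line at 4 h minus wild type, at 1.36 (SE 0.29, adjusted p = 0.0072). AIM1, of fatty acid beta-oxidation, was not called, with values of 0.16, 0.11 and 0.19.

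The limits of the choice cut through a range of values. Just inside were AT5G25240 with -1.502 in wild type, AT5G16110 with -1.51 at 1 h and AT1G19530 with -1.51 at 1 h. Just outside were AT3G07310, with -1.495 at 4 h, 249694_at with -1.485 at 1 h and AT2G27830 with -1.48 in wild type. With no limit at 1 h, 170 probe sets met the limits at 4 h and in wild type, of which 45.3% met it at 1 h too. The same limits turned to a rise gave 53 probe sets. No names were left out of the counts of 170 and 53, and the fall gave 77 before 7 were left out by name.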

How the data were processed

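The authors deposited 1 linear intensity for each probe set on each array, from MAS5 per the submitters' processing notes (no version given), without detection calls. Trimming 2% at both ends leaves a mean of about 500 on all 8 arrays, so each had been scaled.

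The members, the gene lists and the tests were chosen with earlier results of these data known. Members were found on log2 of the group mean plus a pseudocount of 45. For tests, log2(intensity + 45) was fitted on all 8 arrays with 1 mean per group, using lmFit and eBayes (variance trend) of limma 3.58.1 in R 4.3.3. Tests were kept to probe sets above the 40th percentile of their array on at least 2 arrays. P-values were adjusted by Benjamini-Hochberg over the 15026 tested probe sets in each comparison, with 0.05 as threshold. The fit averages logs and the rule takes the log of an average, so their differences vary slightly. Log2 differences understate the change of dim probe sets. The fit was tested on simulated data.

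Every single-gene member was named. Values on all arrays follow for those among the 30 highest uninduced means, those on a list, those called in a test and the 2 unlisted members with the highest uninduced mean; those of AT3G62860, AT3G52070 and AT5G24890 were added after their values were seen. Each list gives up to 4 genes with the largest difference in wild type minus uninduced, and further genes were named for their calls. Lists for nitrogen uptake, aquaporins and brassinosteroid and gibberellin had no tested gene, and a trehalose list, whose 1 match by symbol was a peptidase, was left out. RefSeq TAIR10.1 served for names and neighbours only. Promoter sequences were not analysed here. Replicate numbers do not pair the samples: correlations of same-numbered deviations ran from -0.064 to 0.033.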

Additional observations from a re-analysis of the deposited data

How the results depend on the processing

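With 2 arrays a group, the number of arrays limits every value. The rule gave 192 probe sets with limits of -1 and 27 with limits of -2, against 70 as used. It gave 54 to 73 under a lower or higher pseudocount, quantile normalization or no minimum signal, and 56 to 83 when 1 array was left out. The membership changed more than these sizes. Of the 70 members, 60 were kept with the lower pseudocount, 47 with the higher and 68 with quantile normalization. Between 54 and 68 were kept when 1 array was left out. The count of members lower at 4 h than at 1 h was 16, and 10 with no variance trend, with 8 to 18 when 1 array was left out; the cause was not tested. The 1 member higher at 4 h than at 1 h became 0 with the higher pseudocount and 0 with no filter on low values, and 0 to 1 when 1 array was left out. In wild type minus the 1 h line, 9 members were lower (6 to 12 when 1 array was left out) and 1 was higher (0 to 2). With the replicate block, the counts were 16 lower and 1 higher at 4 h minus 1 h, and 10 lower and 1 higher in wild type minus the 1 h line, and no member's call in these comparisons was lost. On the lists, the block ended the calls of AT2G26800 at 1 h (adjusted p = 0.0509), ATG3 and ATG8D at 4 h, and ATL8 in wild type. The counts for the pathway lists were recomputed under 14 alternatives chosen after seeing the data. No result reversed its direction. Over all tested probe sets, 482 were lower and 514 higher in 4 h minus wild type, against 319 lower with no variance trend and 208 lower without either wild type array. Leaving out 1 array also lowered other totals by over 1.5 times: 1 h minus uninduced had 680 lower without uninduced replicate 1, against 1076; 4 h minus 1 h had 848 lower without 1 h replicate 1, against 1404; wild type minus the 1 h line had 742 lower without wild type replicate 2, against 1370; and wild type minus uninduced had 1401 lower without wild type replicate 1, against 2148. Higher totals moved likewise: 724 against 1515 in wild type minus the 1 h line and 290 against 514 in 4 h minus wild type, both without wild type replicate 2; 914 against 1553 in 4 h minus 1 h without 4 h replicate 1; and 1546 against 2531 in wild type minus uninduced without wild type replicate 1.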
